A study of Mus musculus with 11 samples.

Results

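Genes that mark or regulate B1 B cells are described here in lymphomas of E-mu-BRD2 mice, namely Cd5, Spn, Cd9, Itgam, Il5ra, Zbtb32, Plscr1 and Ptpn22. Every probe set annotated to only 1 of these 8 genes was taken, which gave 9 probe sets of the 22626 on the array that are not controls, and 8 genes of the 12393 that 1-gene probe sets name. B1 cells are innate-like B cells of the body cavities and spleen that renew themselves and secrete natural antibody. They are told from other B cells by the surface proteins CD5, CD43 and, in the body cavities, CD11b, and they depend on interleukin 5 for part of their upkeep. Most of these proteins are not confined to B cells: CD5 and CD43 are also proteins of T cells, and CD11b is an integrin of granulocytes and macrophages.

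The arrays held RNA of 5 transitional and 6 marginal lymphomas, which are severity classes of tumours that arose sporadically in FVB mice. All 11 came from mice with a BRD2 transgene under the heavy chain enhancer E-mu, which acts in B cells, so no array here shows the genes without the transgene. Spleen enlargement was severe for transitional 1 and 2, moderately severe for transitional 4 and 5 and mild for transitional 3, against moderate for marginal 5 and 6, mild for marginal 2, 3 and 4 and marginal for marginal 1. The animals of all 5 transitional arrays failed to nest, as did those of marginal 2 and 3, while marginal 1, 4, 5 and 6 had a neck tumor, a leg tumor, a haunch tumor and paralysis. All tumours were oligoclonal for immunoglobulin, and the sources used here give neither the tissue behind each RNA nor the ages of the mice, nor whether each array is a separate animal. The 2% trimmed mean signal was 493.2 to 495.3 on the 11 arrays, and the number of arrays limits the precision. The brighter probe set of the B cell gene Ms4a1 (CD20) had a signal of 3313.0 on transitional 4 and 2812.2 on transitional 5, against 15621.2 to 24757.2 on transitional 1, 2 and 3 and 7589.4 to 23161.7 on the marginal arrays. On transitional 4 and 5 a B cell identity list had its lowest scores (-2.01 and -2.04) and an erythroid list its highest (2.26 and 2.00), so the class differences, list counts and correlations that turn on them are also given without them. A list's score is the mean, over its tested genes, of the log2 deviation from the 11-array mean.

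The promoters of 4 members are shown because these genes carry the differences between arrays described further on. Each runs from 250 bases before to 50 bases after an annotated start (RefSeq, GRCm38.p6), 5′ to 3′ on the gene's strand, with matches to searched motifs in capitals. Cd5 lies on the minus strand of chromosome 19 (window chr19:10738925-10739224), Il5ra on the minus strand of chromosome 6 (chr6:106748988-106749287), Itgam on the plus strand of chromosome 7 (chr7:128062390-128062689), and Zbtb32 on the minus strand of chromosome 7 (chr7:30598860-30599159). The other members are genes of chromosome 3 (Ptpn22, 103856575 to 103912252), chromosome 6 (Cd9, 125460266 to 125494760), chromosome 7 (Spn, 127123637 to 127145552) and chromosome 9 (Plscr1, 92250194 to 92272561).
Cd5: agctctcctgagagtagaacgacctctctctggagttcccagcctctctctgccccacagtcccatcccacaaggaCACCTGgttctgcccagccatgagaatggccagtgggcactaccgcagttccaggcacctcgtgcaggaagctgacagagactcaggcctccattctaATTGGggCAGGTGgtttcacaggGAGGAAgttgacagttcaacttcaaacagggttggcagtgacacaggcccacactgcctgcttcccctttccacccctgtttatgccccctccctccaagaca
Il5ra: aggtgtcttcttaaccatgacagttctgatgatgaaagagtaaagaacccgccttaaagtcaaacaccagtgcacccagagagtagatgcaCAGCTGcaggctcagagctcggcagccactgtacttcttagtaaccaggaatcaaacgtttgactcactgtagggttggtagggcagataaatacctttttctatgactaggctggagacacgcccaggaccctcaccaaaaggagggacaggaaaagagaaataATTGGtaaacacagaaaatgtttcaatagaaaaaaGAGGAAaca
Itgam: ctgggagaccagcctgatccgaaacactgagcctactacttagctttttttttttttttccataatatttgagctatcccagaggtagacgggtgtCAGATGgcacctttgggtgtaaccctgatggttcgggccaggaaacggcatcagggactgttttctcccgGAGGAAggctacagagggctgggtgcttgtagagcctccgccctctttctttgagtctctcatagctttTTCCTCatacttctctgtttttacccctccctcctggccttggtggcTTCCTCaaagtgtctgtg
Zbtb32: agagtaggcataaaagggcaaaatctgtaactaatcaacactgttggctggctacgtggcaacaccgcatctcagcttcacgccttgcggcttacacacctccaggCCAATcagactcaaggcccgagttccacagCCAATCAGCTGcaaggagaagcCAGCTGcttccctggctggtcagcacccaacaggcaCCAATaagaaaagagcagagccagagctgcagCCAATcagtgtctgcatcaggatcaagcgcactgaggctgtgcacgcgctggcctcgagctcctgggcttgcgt
The capitals mark GAGGAA (the core bound by PU.1), TTCNNNGAA (STAT), CANNTG (the E-box, which factors such as E2A bind) and CCAAT, on either strand, so TTCCTC is GAGGAA and ATTGG is CCAAT read on the other strand. Itgam held GAGGAA 3 times, and Cd5 and Il5ra held it 1 time each. At least 1 GAGGAA was in 28.3% of 32851 promoters. For no motif was the share of promoters with several matches counted, so repeats have no background here. This Zbtb32 window held CCAAT 4 times and the E-box 2 times, where the second CCAAT is followed directly by an E-box. Zbtb32 has another annotated start, whose window (chr7:30592893-30593192) held CCAAT 0 times and the E-box 1 time. CCAAT was in 37.4% and the E-box in 72.3% of all promoters. CCAAT was added to the search after these sequences had been seen. The interferon response element, in 3.44% of all promoters, was in none of the 10 windows of the 8 genes, and TTCNNNGAA, in 8.3%, was in the Plscr1 window and 1 of the 2 Ptpn22 windows. Whether any factor binds there was not measured.

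Cd5 encodes a scavenger-type receptor that dampens antigen receptor signals in B1a cells and T cells. Its signal was 1828.6, 2111.9, 707.2, 125.9 and 43.1 on transitional 1 to 5, against 277.2, 483.9, 410.8, 950.2, 514.1 and 103.8 on marginal 1 to 6. The 2 severe transitional arrays were the highest of the 11 and transitional 5 the lowest, so the transitional arrays lay on both sides of the marginal ones. The mean was 963 ± 959 in transitional (SD, n = 5) and 457 ± 285 in marginal lymphomas (SD, n = 6), and the highest array was 49.0 times the lowest. Spn, which encodes the mucin-like CD43 of B1 cells, T cells and myeloid cells, had a signal of 614.0, 601.5, 539.0, 302.6 and 143.6 on transitional 1 to 5, against 424.3, 279.1, 279.7, 501.1, 247.1 and 188.4 on marginal 1 to 6. Transitional 1, 2 and 3 were each above every marginal array, and transitional 5 was again the lowest. Its mean was 440 ± 208 in transitional (SD, n = 5) and 320 ± 118 in marginal lymphomas (SD, n = 6).

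Cd9 encodes a tetraspanin of B1, marginal zone and plasma cells and of platelets. Its signal was 887.0, 2452.2, 2407.5, 1400.0 and 278.8 on transitional 1 to 5, against 1762.4, 1069.6, 1604.9, 1585.1, 1152.2 and 1233.2 on marginal 1 to 6. The marginal arrays stayed within a narrow band, while the transitional ones reached both above and below it. The mean was 1485 ± 950 in transitional (SD, n = 5) and 1401 ± 285 in marginal lymphomas (SD, n = 6). Itgam, which encodes CD11b, the alpha chain of the integrin Mac-1, had a signal of 73.8, 252.5, 278.5, 939.4 and 266.7 on transitional 1 to 5, against 1946.6, 455.3, 831.4, 382.8, 205.5 and 59.6 on marginal 1 to 6. Marginal 1 was the highest array and marginal 6 the lowest, 32.7-fold apart. The mean was 362 ± 333 in transitional (SD, n = 5) and 647 ± 688 in marginal lymphomas (SD, n = 6).

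Il5ra encodes the chain of the interleukin 5 receptor that binds the cytokine, and it pairs with the common beta chain Csf2rb to signal through Jak2 and Stat5. Il5ra signal was 587.2, 700.1, 1040.0, 150.9 and 43.3 on transitional 1 to 5, against 149.2, 172.4, 299.0, 406.7, 2027.2 and 1836.5 on marginal 1 to 6. Marginal 5 and 6, the arrays with moderate spleens, stood above all others, and the remaining marginal arrays lay below transitional 1, 2 and 3. The mean was 504 ± 409 in transitional (SD, n = 5) and 815 ± 872 in marginal lymphomas (SD, n = 6). Csf2rb signal was 171.7 to 1148.6 on the transitional and 289.1 to 880.6 on the marginal arrays, highest on transitional 2 and lowest on transitional 1. The cytokine gene Il5 itself had signals of 2.5 to 34.0 on the transitional and 1.8 to 9.0 on the marginal arrays and did not pass the filter on dim probe sets.

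Zbtb32 encodes a zinc finger repressor that restrains the proliferation and antibody output of B cells. Its signal was 329.8, 1419.1, 1539.1, 315.8 and 69.4 on transitional 1 to 5, against 144.5, 201.9, 501.2, 597.9, 1640.5 and 1538.1 on marginal 1 to 6. The 4 highest arrays were marginal 5 and 6 and transitional 2 and 3. The mean was 735 ± 689 in transitional (SD, n = 5) and 771 ± 658 in marginal lymphomas (SD, n = 6). Ptpn22 encodes a tyrosine phosphatase that limits antigen receptor signalling in B and T cells. Its signal was 3466.0, 4125.7, 3490.1, 871.9 and 277.6 on transitional 1 to 5, against 1146.2, 1318.6, 2572.2, 3587.7, 3848.7 and 4365.2 on marginal 1 to 6. Transitional 4 and 5 and marginal 1 and 2 were the dim arrays of this gene, and the other 7 lay close together. The mean was 2446 ± 1742 in transitional (SD, n = 5) and 2806 ± 1353 in marginal lymphomas (SD, n = 6).

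Plscr1, an interferon-induced phospholipid scramblase of the plasma membrane, was read by 2 probe sets. The _a_at probe set, a kind that reads several transcripts of 1 gene, gave signals of 505.0, 720.4, 699.8, 493.6 and 290.8 on transitional 1 to 5, against 881.1, 225.5, 626.7, 369.8, 674.8 and 730.7 on marginal 1 to 6. Marginal 1 was the highest and marginal 2 the lowest. The _x_at probe set, a kind that may bind other transcripts too, ran from 299.1 to 801.2 on the transitional and from 199.5 to 864.3 on the marginal arrays, with the same highest and lowest array. Both followed each other over the 11 arrays (Pearson r = 0.982, Spearman rho = 0.991, permutation p = 1e-05 each, the smallest that 100000 resamples can give). Their means were 542 ± 176 and 562 ± 190 in transitional (SD, n = 5) and 585 ± 243 and 593 ± 235 in marginal lymphomas (SD, n = 6). Plscr1 and Spn varied least, with at most 4.33-fold between the highest and the lowest array. Of the 9 member probe sets, 6 were lowest on transitional 5. That array also had the lowest median signal over all probe sets, 98.8, where the highest array median was 151.0. The share of all probe sets that were lowest on it was not counted, so this is not shown to be a trait of the members.

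**Figure D1:**
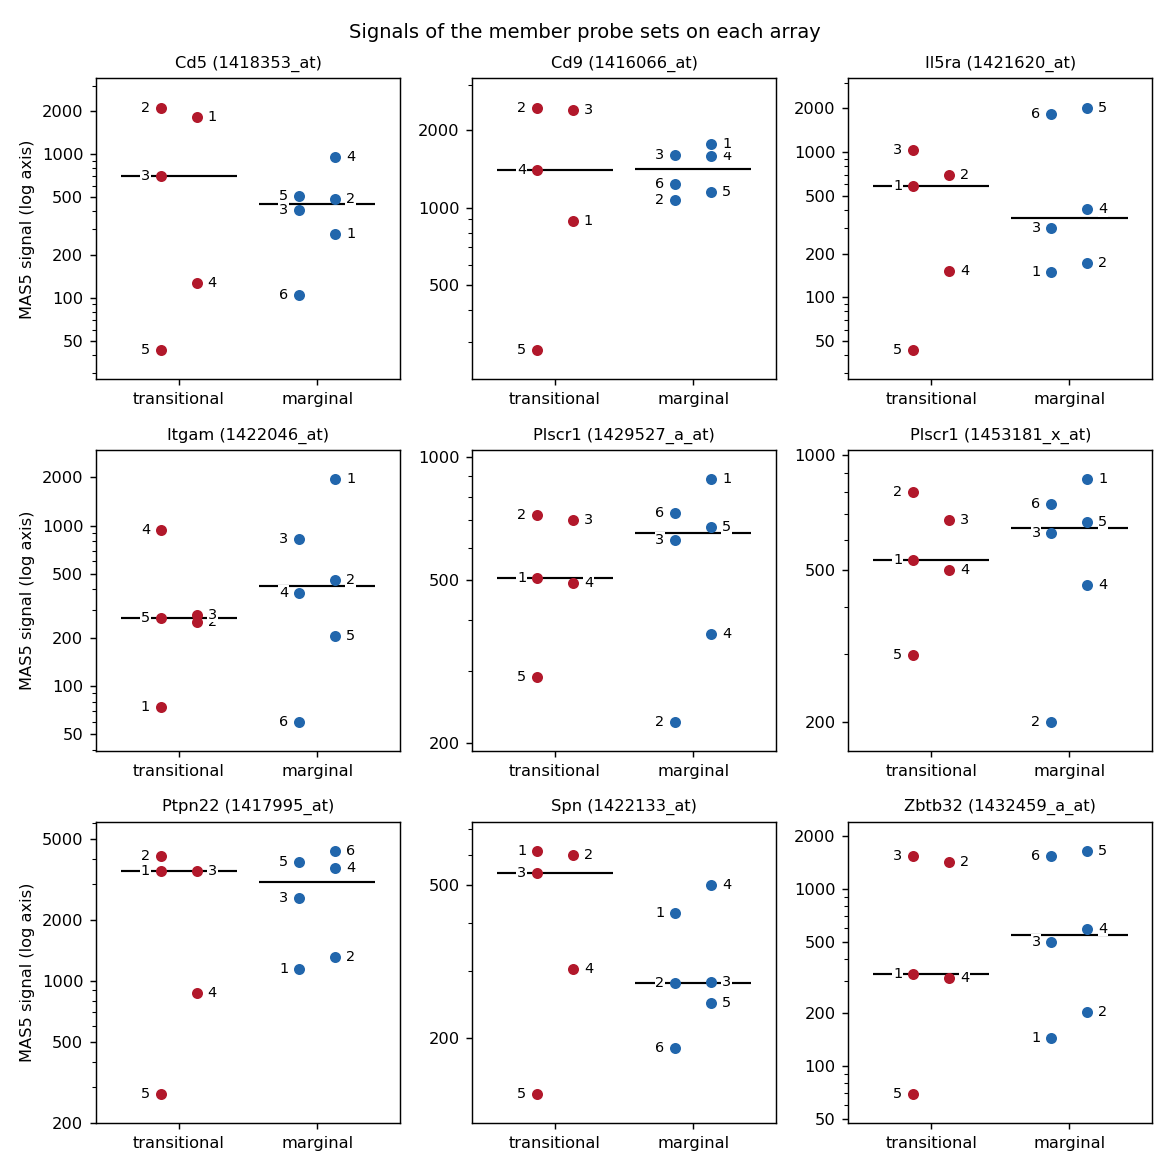
Signal of each member probe set on a log axis for the transitional arrays (left, red) and the marginal arrays (right, blue), numbered as in the text, with the median of each class as a line. All 9 panels show overlapping classes, and 6 probe sets have their lowest point on transitional 5, the array with the lowest median signal over all probe sets.

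Flow cytometry was recorded for 1 tumour, marginal 6, whose cells were positive for B220, CD5 and CD11b, the surface pattern of a B1 cell. On that array Cd5 signal was 103.8, the lowest of the marginal arrays and rank 10 of the 11, and Itgam signal was 59.6, the lowest of all 11. Itgb2, the beta chain that pairs with CD11b, had 1414.9 there, against 2619.2 to 6864.9 on the other marginal arrays. Ptprc, the gene of B220, had 6926.1, rank 9 of the 11, against 7412.6 to 19912.3 on the other marginal arrays. The brighter Ms4a1 probe set had 17644.7 there, rank 5 of the 11. The same array was at or near the top for Il5ra, Zbtb32 and Ptpn22. Protein on the surface of cells and RNA of a sample are different quantities, and the deposited values hold no detection calls.

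The severity classes were compared to ask which genes differ between transitional and marginal tumours. None of the 9 member probe sets showed a difference past the spread between arrays: 0 passed the limma test (adjusted p = 0.999 each), against 0 of all 13575 tested probe sets (0%). At an unadjusted p of 0.05 the counts were 0 of 9 and 454 of 13575 (3.34%). No member had classes without overlap, against 31 of 13575 probe sets (0.228%). On the log2(signal + 16) scale, transitional minus marginal, the difference was -0.58 for Ptpn22 (SE 0.67), -0.56 for Il5ra (SE 0.87), -0.54 for Itgam (SE 0.77), -0.25 for Zbtb32 (SE 0.82) and -0.24 for Cd9 (SE 0.47). It was -0.046 and -0.019 for the Plscr1 probe sets (SE 0.35 and 0.36), 0.26 for Cd5 (SE 0.90) and 0.34 for Spn (SE 0.38). The 95% interval was widest for Cd5, -1.69 to 2.21, so large differences in either direction are within it.

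Leaving out transitional 4 and 5 moved these values. The difference became 1.84 for Cd5 (SE 0.57, limma adjusted p = 0.335) and 0.91 for Spn (SE 0.29, limma adjusted p = 0.366), neither past the threshold. In the same comparison 13 of 13 tested T cell genes were higher in transitional lymphomas (median 1.39) and 11 of 11 granulocyte genes lower (median -1.56), and their part in the member values was not tested. Itgam was at -1.12, and Zbtb32 (0.73), Il5ra (0.62), Ptpn22 (0.56), Cd9 (0.33) and Plscr1 (0.24 and 0.28) turned to the other sign. With single arrays left out, Spn (0.18 to 0.68) and Itgam (-1.035 to -0.095) kept their sign throughout, and the other 7 probe sets changed it for at least 1 array.

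**Figure D2:**
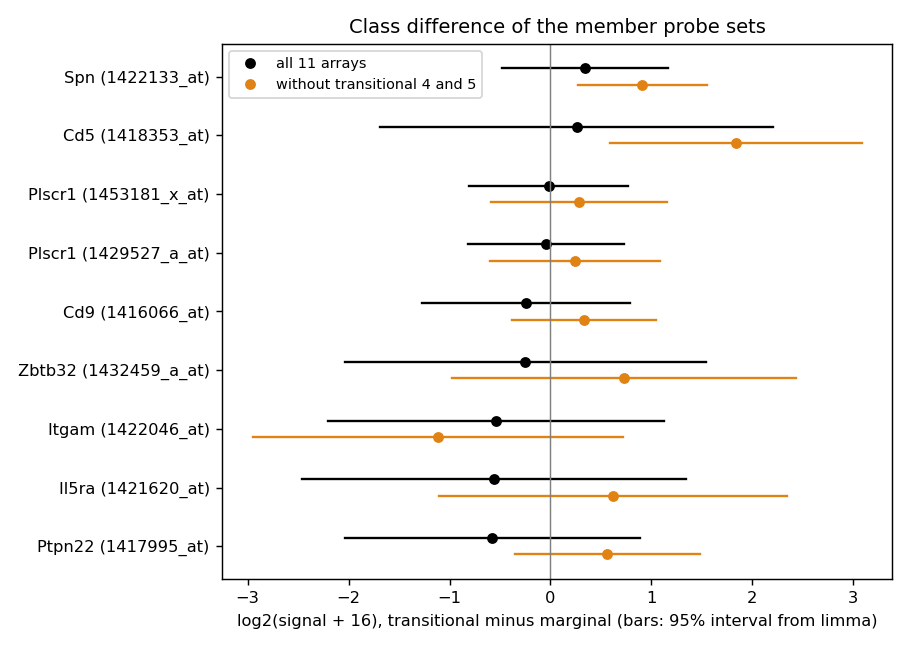
Difference of each member probe set in log2(signal + 16), transitional minus marginal, with 95% intervals from limma, for all 11 arrays (black) and without transitional 4 and 5 (orange). With all arrays every interval includes 0, while without these arrays those of Cd5 (0.59 to 3.09) and Spn (0.27 to 1.55) do not, at adjusted p of 0.335 and 0.366.

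Spleen grade was recorded for every animal and was ranked from 1 (marginal) to 5 (severe). Over all 11 arrays 0 members and 0 of 13575 probe sets followed the grade (0%, limma). At an unadjusted p of 0.05 the counts were 1 member, Itgam, and 292 probe sets (2.15%). Itgam had a slope of -0.57 log2 units per grade step (SE 0.26, limma adjusted p = 1.0). The slope without transitional 4 and 5 was -0.74 for Itgam (limma adjusted p = 0.367), 0.565 for Cd5 against 0.185 with all arrays (adjusted p = 0.5), 0.41 for Il5ra against 0.075 (adjusted p = 0.703) and 0.31 for Ptpn22 against -0.007 (adjusted p = 0.525). With class in the model the counts were 0 (0%) and, unadjusted, again Itgam and 298 probe sets (2.2%). Its slope there was -0.84 (SE 0.37, limma adjusted p = 1.0), and that of Il5ra was 0.47 (SE 0.49). That fit turned on transitional 3, the only transitional array with a mild spleen. Without it 1146 of 13575 probe sets passed, among them Il5ra (2.15, adjusted p = 0.0138), Itgam (-1.92, adjusted p = 0.0212), Zbtb32 (1.81, adjusted p = 0.028) and Ptpn22 (1.42, adjusted p = 0.0472) in limma. The transitional arrays in that fit are 4 and 5, both moderately severe, and 1 and 2, both severe. Transitional 4 and 5 had the lowest B cell identity scores (-2.01 and -2.04). Il5ra signal was 150.9 and 43.3 on them, against 587.2 and 700.1 on transitional 1 and 2. The part of transitional 4 and 5 in these calls was not tested.

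Within the marginal class, a comparison added after the data had been seen, Il5ra and Zbtb32 rose and Itgam fell with spleen grade. Il5ra rose by 1.95 log2 units per grade step (SE 0.32), 3.86-fold on that scale, and Zbtb32 by 1.72 (SE 0.28), 3.28-fold. Itgam fell by 1.98 log2 units per step (SE 0.32). Each had a limma adjusted p of 0.03 over 6 arrays. These 3 of 9 member probe sets compare with 342 of 13575 probe sets (2.52%), 133 up and 209 down. At an unadjusted p of 0.05 the counts were 4 members, Ptpn22 being the fourth, and 2748 probe sets (20.2%). Ptpn22 did not pass (slope 0.90, SE 0.25, adjusted p = 0.0959), nor did Spn (-0.49, SE 0.22, adjusted p = 0.26), Cd5 (-0.31), Cd9 (-0.27) and Plscr1 (0.023 and 0.031).

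The trend rests on few arrays, since 1 marginal array has grade 1 and 2 have grade 3. The Il5ra call was lost without marginal 3 (limma adjusted p = 0.0576), 5 (0.0799) or 6 (0.103), and the Zbtb32 call without marginal 1 (0.118), 3 (0.0576), 5 (0.0765) or 6 (0.102). The Itgam call was lost without marginal 1 (0.149) or 6 (0.0772), and Ptpn22 was called without marginal 4 (0.0487). The number of probe sets called over the whole array was 84, 155, 68, 563, 106 and 24 without marginal 1 to 6. The slopes of Il5ra, Zbtb32, Itgam and Ptpn22 kept their sign with each marginal array left out. Mmp9, a granulocyte protease, fell by 2.41 log2 units per step (SE 0.36, limma adjusted p = 0.0264). In the same arrays 6 of the 11 tested granulocyte genes passed with a falling slope. The rest had negative slopes too, and the median slope of the list was -2.81. The part of the granulocyte genes in the Itgam result was not tested. The granulocyte score was 3.19, 0.61, 2.28, -1.23, -1.60 and -2.31 on marginal 1 to 6. The B cell identity score was -0.32, 0.94, 0.05, 1.31, 0.78 and 0.32 on the same arrays. The part of cell content in the Il5ra and Zbtb32 slopes was not tested either.

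Whether the slope differed between classes was tested with a grade by class term, also added after the data had been seen. No probe set passed in limma (0 of 13575, 0%), and at an unadjusted p of 0.05 there were 1462 (10.8%), among them 3 members. Transitional slope minus marginal slope was -2.18 for Il5ra (SE 0.86, limma adjusted p = 0.425), -2.10 for Zbtb32 (SE 0.83, limma adjusted p = 0.426) and 1.67 for Itgam (SE 0.63, limma adjusted p = 0.403). Without transitional 4 and 5 the values were the same, with a smaller SE. It was 0.38 for Il5ra (limma adjusted p = 0.0581), 0.47 for Zbtb32 (0.0823) and 0.45 for Itgam (0.106), none called. The transitional slope then rests on transitional 3 against transitional 1 and 2. In that setting 14 of 13575 probe sets passed. The slope of these genes is therefore not shown to be particular to the marginal class in either setting. Without transitional 3 the term passed for 1346 probe sets, and it became 0.78 for Il5ra, 0.35 for Zbtb32 and 0.24 for Itgam, none of them called.

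**Figure D3:**
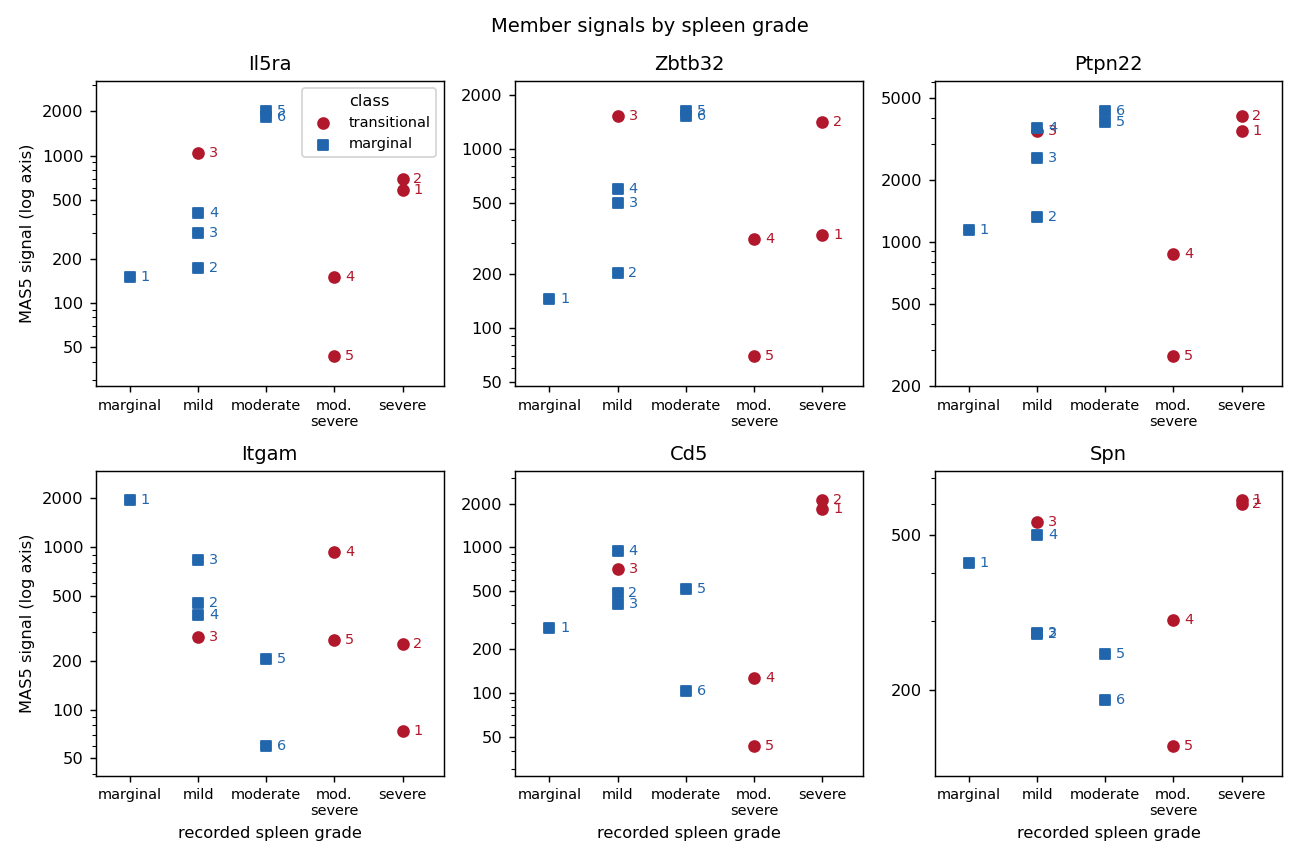
Signals of Il5ra, Zbtb32, Ptpn22, Itgam, Cd5 and Spn on a log axis against the recorded spleen grade, for transitional (red circles) and marginal arrays (blue squares), numbered as in the text. Among the marginal arrays Il5ra and Zbtb32 are highest at the moderate grade and Itgam at the marginal grade, while of the transitional arrays the mild one is highest for Il5ra (1040.0) and Zbtb32 (1539.1) and a moderately severe one for Itgam (939.4).

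The members were set against each other over the arrays, 28 pairs in all, a comparison added after the data had been seen. Il5ra, Zbtb32 and Ptpn22 varied together. Many genes vary together on these arrays, and the share of all probe set pairs that reach such r was not counted. The pairs that passed are therefore not shown to be particular to the members. By r with Il5ra, Zbtb32 stood at rank 23 among 12471 probe sets. Pearson r was 0.932 for Il5ra with Zbtb32 (permutation p = 5e-05, adjusted p = 0.0007; Spearman rho = 0.955, permutation p = 2e-05, adjusted p = 0.00056). It was 0.901 for Il5ra with Ptpn22 (permutation p = 2e-05, adjusted p = 0.00056; rho = 0.909, permutation p = 0.00032, adjusted p = 0.00448). For Ptpn22 with Zbtb32 it was 0.868 (permutation p = 0.00021, adjusted p = 0.00196; rho = 0.864, permutation p = 0.00127, adjusted p = 0.0119). Without the 2 arrays farthest from the median r was 0.878, 0.850 and 0.748 for these 3 pairs. Without transitional 4 and 5 r was 0.903, 0.850 and 0.864 (permutation adjusted p = 0.0177 each), while rho was 0.933 (permutation adjusted p = 0.0218), 0.850 (0.0775) and 0.800 (0.0802), so the rank call was kept for Il5ra with Zbtb32 alone. Within the 6 marginal arrays r was 0.970 for Il5ra with Zbtb32 (exact permutation p = 0.00556, adjusted p = 0.0778), 0.953 for Ptpn22 with Zbtb32 (exact permutation p = 0.00278, adjusted p = 0.0778) and 0.868 for Il5ra with Ptpn22 (exact permutation p = 0.0458, adjusted p = 0.257), none past the threshold.

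Cd5 and Spn formed the other pair that passed, with r = 0.866 (permutation p = 0.00072, adjusted p = 0.00504; rho = 0.809, permutation p = 0.00402, adjusted p = 0.0281). It was 0.749 without transitional 1 and 5, 0.829 without transitional 4 and 5 (permutation adjusted p = 0.0294; rho = 0.800, permutation adjusted p = 0.0802, which does not pass) and 0.656 in the marginal arrays (exact permutation adjusted p = 0.47). No pair with Itgam passed. Its r was -0.596 with Il5ra (permutation p = 0.0539, adjusted p = 0.147; rho = -0.700, permutation p = 0.0204, adjusted p = 0.114) and between -0.445 and 0.255 with the rest. With transitional 4 and 5 left out it was -0.760 with Il5ra (permutation adjusted p = 0.0913), -0.755 with Ptpn22 (0.110) and -0.567 with Zbtb32 (0.456), and in the marginal arrays -0.855, -0.783 and -0.840 (exact permutation adjusted p = 0.214, 0.311 and 0.214), all negative.

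**Figure D4:**
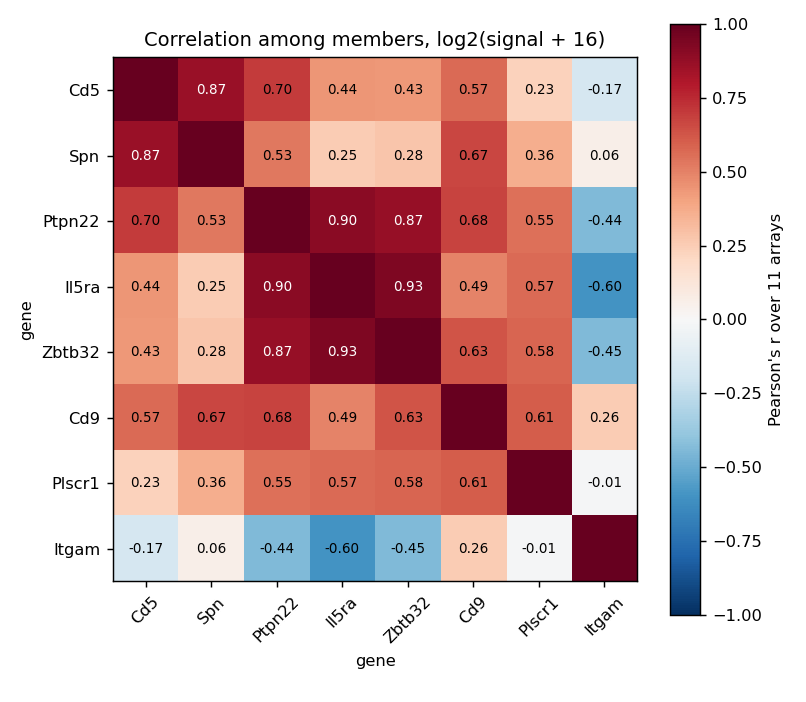
Pearson correlation of log2(signal + 16) between the 8 members over the 11 arrays, with Plscr1 read by its _a_at probe set. Il5ra, Zbtb32 and Ptpn22 form a block of r from 0.87 to 0.93, Cd5 and Spn have r = 0.87, and Itgam has negative r with 5 of the other 7 members.

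Because several members are also genes of other blood cells, 11 pairs of a member and a marker list were examined. Cd5 followed the T cell list, of which 13 of 16 genes were tested, with r = 0.962 (permutation p = 2e-05, adjusted p = 0.00022; rho = 0.955, permutation p = 3e-05, adjusted p = 0.00033). It was 0.964 without transitional 1 and 5, 0.958 without transitional 4 and 5, and 0.940 in the 6 marginal arrays (exact permutation p = 0.0181, adjusted p = 0.0713), where it was 0.454 without marginal 4 and 6. The T cell score was highest on transitional 1 (2.20) and 2 (1.59) and lowest on transitional 5 (-3.43) and 4 (-1.47), and the summed T cell signal was 470 to 35468 on the transitional and 5511 to 15957 on the marginal arrays. Cd3e, a chain of the T cell receptor complex, had 1388.6, 951.1, 356.0, 120.8 and 14.2 on transitional 1 to 5, in the same order of arrays within the class as the T cell score. In bulk RNA, fewer cells of a type and less RNA per cell cannot be told apart, and the part of T cells in the Cd5 signal was not tested. With the B cell identity list Cd5 had r = 0.654 (permutation p = 0.0289, adjusted p = 0.053; rho = 0.545, permutation p = 0.0897, adjusted p = 0.165), and 0.128 without transitional 4 and 5.

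Spn also followed the T cell list, with r = 0.863 (permutation p = 0.00032, adjusted p = 0.00117; rho = 0.809, permutation p = 0.0041, adjusted p = 0.0113). Its r was 0.737 without transitional 1 and 5, 0.856 without transitional 4 and 5 and 0.742 in the marginal arrays (exact permutation adjusted p = 0.237), where the sign turned (-0.410) without marginal 4 and 6. With the granulocyte list Spn had r = -0.249 (permutation p = 0.455, adjusted p = 0.501; rho = -0.155, permutation p = 0.657, adjusted p = 0.722). Ptpn22 had r = 0.765 with the T cell list (permutation p = 0.00735, adjusted p = 0.0162), but rho = 0.464 (permutation p = 0.153, adjusted p = 0.211). That relation rested on transitional 4 and 5, since r was 0.196 without them (permutation adjusted p = 0.774), and the call was also lost without transitional 4 (adjusted p = 0.0661) or 5 (adjusted p = 0.283) alone.

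Itgam followed the granulocyte list, of which 11 of 12 genes were tested, with r = 0.911 (permutation p = 5e-05, adjusted p = 0.000275; rho = 0.882, permutation p = 0.0007, adjusted p = 0.00326). Its r was 0.835 without marginal 1 and transitional 4, 0.945 without transitional 4 and 5, and 0.932 in the 6 marginal arrays (exact permutation p = 0.00278, adjusted p = 0.0306). The granulocyte score was 2.60 on transitional 4 and -2.81 on transitional 1, against 3.19 on marginal 1 and -2.31 on marginal 6. The summed granulocyte signal was 9130 to 173094 on the transitional and 11330 to 223849 on the marginal arrays. The part of granulocytes in the Itgam signal was not tested. With the macrophage list Itgam had r = 0.385 (permutation p = 0.241, adjusted p = 0.379; rho = 0.518, permutation p = 0.107, adjusted p = 0.168), and without transitional 2 it was 0.718 and passed (permutation adjusted p = 0.0299).

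The eosinophil list, chosen because eosinophils carry the interleukin 5 receptor, had 1 tested gene of 7, the granule protein gene Prg2. Il5ra ran against Prg2, with r = -0.819 (permutation p = 0.00247, adjusted p = 0.00679; rho = -0.873, permutation p = 0.00089, adjusted p = 0.00326), and -0.893 without marginal 1 and 2. Its r was -0.869 without transitional 4 and 5 (permutation adjusted p = 0.0029). In the marginal arrays it was -0.894 and did not pass (exact permutation adjusted p = 0.0713). Prg2 was dim on marginal 4 to 6 (72, 44 and 28) and transitional 1 to 3 (79, 34 and 73), below the array medians of 98.8 to 151.0. The relations of Cd9 with platelet genes (r = 0.324, permutation p = 0.337, adjusted p = 0.414; rho = 0.618, permutation p = 0.0474, adjusted p = 0.104), Plscr1 with interferon response genes (r = 0.313, permutation p = 0.339, adjusted p = 0.414; rho = 0.364, permutation p = 0.269, adjusted p = 0.329) and Zbtb32 with plasma cell genes (r = -0.109, permutation p = 0.751, adjusted p = 0.751; rho = -0.118, permutation p = 0.736, adjusted p = 0.736) did not pass. Without the 2 arrays farthest from the median their r was 0.036, 0.255 and -0.156. With transitional 4 and 5 left out it was 0.639, 0.154 and -0.619 (permutation adjusted p = 0.132, 0.774 and 0.132), and in the marginal arrays 0.630, -0.363 and -0.710 (exact permutation adjusted p = 0.311, 0.565 and 0.251).

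**Figure D5:**
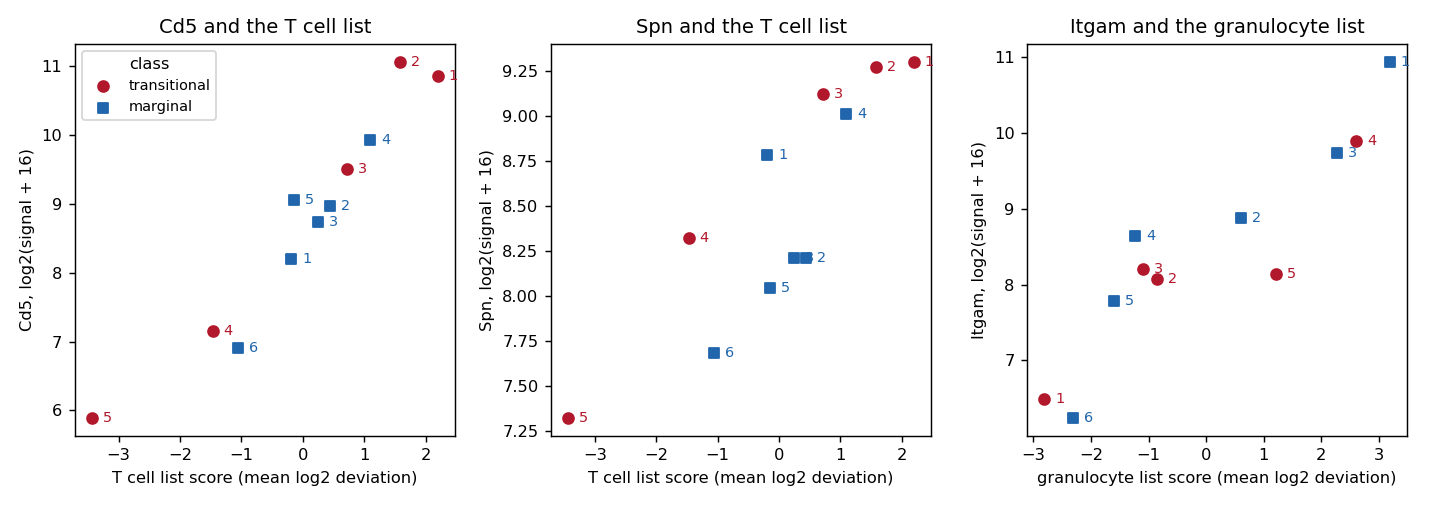
Log2(signal + 16) of Cd5 and Spn against the T cell score and of Itgam against the granulocyte score, 1 point per array, transitional in red and marginal in blue. The points of Cd5 lie close to a line (r = 0.962), with transitional 5 at the lower and transitional 1 and 2 at the upper end, and those of Itgam run from transitional 1 and marginal 6 up to marginal 1 (r = 0.911).

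For each member the 3 genes with the most similar pattern over the 11 arrays were found by Pearson r of log2(signal + 16), as a description. Those of Cd5 were Lat (r = 0.990), Fyn (0.981) and Cd6 (0.972), where Lat is an adaptor of the T cell receptor, Fyn a kinase and Cd6 a receptor related to CD5. Those of Itgam were Mmp9 (0.966), the glycogen phosphorylase Pygl (0.959) and Ceacam10 (0.957). Those of Il5ra were Npepl1 (0.977), Nacc2 (0.976) and Zmynd11 (0.968), and those of Zbtb32 were the sulfotransferase Chst7 (0.968), the guidance receptor Robo1 (0.956) and the interleukin 17 receptor chain Il17rb (0.949). Among 12471 probe sets, Zbtb32 stood at rank 23 by r with Il5ra, and Il5ra at rank 8 by r with Zbtb32. Those of Ptpn22 were Top1mt (0.962) and the lymphocyte GTPases Gimap3 (0.962) and Gimap4 (0.961). Those of Spn were the histamine receptor Hrh2 (0.941), Trabd (0.930) and Tspan14 (0.918), and those of Cd9 were Arsi (0.906), Cd300lf (0.895) and the oxidase subunit Cyba (0.870). The Plscr1 probe sets shared none of their 3: Arhgef25 (0.873), Camsap1 (0.846) and Ccdc186 (0.833) for the _a_at, and Cnot6 (0.871), Ide (0.862) and Pfkfb3 (0.861) for the _x_at probe set.

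Genes that work beside the members were described in lists, and in limma 0 genes of any list passed between classes (adjusted p = 0.999 for each gene named). Over all 13575 tested probe sets 5750 had a higher and 7825 a lower mean in transitional lymphomas, with a median log2 difference of -0.057. The numbers were also taken without transitional 4 and 5, a setting added for the lists after the data had been seen, and were then 7084 and 6491, with a median of 0.016. Of 16 further B1 cell genes 4 were higher and 12 lower (median -0.33), led by the calcineurin-dependent factor Nfatc1 (-1.19, SE 0.58), the TACI gene Tnfrsf13b (-1.10, SE 0.54) and the scaffold gene Ahnak (-1.01, SE 0.53). The counts without transitional 4 and 5 were 7 and 9 (median -0.07). Bhlhe41, a transcription factor needed for B1a cells, had 140.2, 146.5, 223.3, 69.2 and 77.6 on transitional 1 to 5, against 114.2, 130.5, 164.7, 179.1, 179.8 and 190.0 on marginal 1 to 6. Its lowest arrays were transitional 4 and 5, as for Ms4a1. Within the marginal class 1 of the 16 passed with grade, the membrane-binding annexin gene Anxa2, which fell by 1.37 log2 units per step (SE 0.23, limma adjusted p = 0.03).

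Of 8 genes of interleukin 5 receptor signalling 2 were higher and 6 lower in transitional lymphomas (median -0.09), with the kinase Btk at -0.58 (SE 0.26), Stat5b at -0.44 (SE 0.23) and the adaptor Sdcbp, which binds the receptor, at 0.33 (SE 0.33). Of 10 antigen receptor inhibitors and partners of Ptpn22, 1 was higher and 9 lower (median -0.64), with Pecam1 at -1.12 (SE 0.51), the lipid phosphatase Inpp5d at -0.64 (SE 0.31) and the phosphatase Ptpn6 at -0.86 (SE 0.43). Of 8 tetraspanins 2 were higher and 6 lower (median -0.18), with Cd37 at -1.17 (SE 0.56), Tspan32 at -0.41 (SE 0.26) and Cd82 at 0.31 (SE 0.31). Of 7 partners of CD11b and other leukocyte integrins 3 were higher and 4 lower (median -0.27), with Itgax at -0.37 (SE 0.67), Itgb7 at -0.30 (SE 0.59) and Itga4 at 0.18 (SE 0.38). Without transitional 4 and 5 the counts of higher and lower were 4 and 4 (median -0.01) for the receptor signalling genes, 2 and 8 (-0.13) for the inhibitors, 4 and 4 (-0.01) for the tetraspanins and 6 and 1 (0.55) for the integrins. The inhibitor score was -1.15 and -1.47 on transitional 4 and 5 and 0.14 to 0.31 on transitional 1 to 3, against -0.36 to 0.92 on the marginal arrays. The integrin list held 1 gene that passed with grade in the marginal class, the Fc receptor Fcgr3, which fell by 1.82 log2 units per step (SE 0.26, limma adjusted p = 0.026). The B cell identity list was lower in 16 of 16 (median -1.11), with a summed signal of 15909 to 109086 on the transitional and 43984 to 141917 on the marginal arrays. Its genes with the smallest p were Ebf1 (-1.76, SE 0.51), Cr2 (-1.75, SE 0.70) and Fcer2a (-1.81, SE 0.74). This list had 6 higher and 10 lower genes without transitional 4 and 5 (median -0.08), where its score was -0.14 to 0.64 on the transitional and -0.32 to 1.31 on the marginal arrays. In the marginal class its kinase gene Blk rose with grade, by 1.08 log2 units per step (SE 0.21, limma adjusted p = 0.0409).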

How the data were processed

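The array intensities were deposited on a linear scale and were used unchanged. MAS5 computed them, per the submitters' processing notes, with a version not given in the sources used here. RNA was primed with poly-dT, per the labels' protocols. The table held 22690 probe sets, of which 64 controls were left out. Of the rest, 20380 had 1 gene in GEO's platform annotation, 691 several and 1555 none. After 16 was added and log2 taken, the upper 60% by mean (13575) were tested with limma 3.58.1 in R 4.3.3 (lmFit, eBayes with an intensity trend, Benjamini-Hochberg, two-sided, threshold 0.05). All 9 member probe sets passed this filter. Fits used class, spleen grade, and grade with class. Permutation p-values are two-sided, with 100000 resamples or exact within the marginal class. They give how often shuffled arrays reach a correlation at least as large. The spread between these arrays, on which the limma tests rest, may be technical, and no batch record was used.

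The members and the 15 gene lists were chosen with earlier results of these data known. The rule for named genes takes all members, the 3 genes of each described list with the smallest p between classes, and the 3 genes most like each member. Genes of a list that passed with grade in the marginal class, and Bhlhe41, Ms4a1, Cd3e, Csf2rb, Il5, Itgb2 and Ptprc, were named beyond that rule, after their values were seen. Alternatives were offsets of 1 and 64, quantile normalization, no filter, the upper 40%, the sample number as a block, only animals that failed to nest, and leaving out arrays.

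Data of 13575 probe sets were simulated with normal noise drawn independently for each probe set. There the class fit recovered 41 of 100 differences of 1 log2 unit and 79 of 100 of 2 log2 units, with 5 false calls. The grade fit recovered 58 of 100 slopes of 0.5 and 90 of 100 slopes of 1, with 12 false calls. On the real arrays many genes vary together, so these counts need not hold for the fits reported here. Promoters and gene positions are from RefSeq (GRCm38.p6).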

Additional observations from a re-analysis of the deposited data

How the results depend on the processing

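No member was called between classes under any setting tried, but the sign of most differences was not stable. Without transitional 4 and 5 the class difference was 0.333 for Cd9, 0.622 for Il5ra, 0.241 and 0.281 for Plscr1, 0.564 for Ptpn22 and 0.73 for Zbtb32. Among animals that failed to nest it was 0.479 for Il5ra, 0.436 and 0.567 for Plscr1 and 0.472 for Zbtb32, and after quantile normalization 0.05 and 0.078 for Plscr1. Arrays with the same sample number in their titles were not alike. Their deviations from the class means correlated at -0.452 to -0.088, and 0 of 5 had its own number as best partner. These values do not settle whether the numbers mark pairs. With the sample number as a replicate block 0 probe sets were called (315 at an unadjusted p of 0.05), and the difference was -0.086 for Cd5, 0.042 and 0.071 for Plscr1 and 0.05 for Zbtb32.

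With each array left out in turn the class difference ran from -0.283 to 1.01 for Cd5, -0.511 to 0.255 for Cd9, -0.968 to 0.07 for Il5ra, -0.284 to 0.153 and -0.293 to 0.182 for Plscr1, -0.905 to 0.049 for Ptpn22, -0.683 to 0.363 for Zbtb32, -1.035 to -0.095 for Itgam and 0.184 to 0.68 for Spn. The slope with grade over all arrays ran from -0.128 to 0.383 for Cd5 and from -0.696 to -0.346 for Itgam. With class in the model, calls ran from 0 to 1146, and slopes from 0.265 to 2.15 for Il5ra and from -1.918 to -0.601 for Itgam. Within the marginal class calls ran from 24 to 563, and slopes from -1.229 to 0.427 for Cd5, -0.189 to 0.876 and -0.182 to 0.843 for Plscr1, 1.744 to 2.732 for Il5ra, 1.638 to 1.967 for Zbtb32, -2.349 to -1.574 for Itgam and 0.828 to 0.957 for Ptpn22. With no filter 144 probe sets were called in place of 342, where 22626 were tested in place of 13575. The grade by class term was called for 0 to 1346 probe sets with 1 array left out and for 14 without transitional 4 and 5, and ran from -2.961 to 0.777 for Il5ra and from -2.623 to 0.35 for Zbtb32. Of the marker relations 4 to 7 passed with 1 array left out. Zbtb32 with plasma cell genes ran from -0.359 to 0.051, Ptpn22 with T cell genes from 0.477 to 0.887, Cd5 with B cell identity from 0.463 to 0.766 and Itgam with macrophage genes from 0.2 to 0.718. Cd5 with B cell identity passed without marginal 6 (0.749) or transitional 2 (0.766). Cd5 with B cell identity passed at an offset of 1 (0.668), and Ptpn22 with T cell genes did not without transitional 4 and 5 (0.196). The cause of these changes was not tested. The table holds no detection calls, so no bound could be set for dim signals.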

Other observations

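Of the other marker lists, the NK cell list had 6 of 7 tested genes higher and 1 lower in transitional lymphomas (median log2 difference 0.24), with the granzyme gene Gzmb at 1.48 (SE 0.91), Nkg7 at 0.75 (SE 0.63) and Klrk1 at 0.17 (SE 0.37). The macrophage list had 7 of 9 higher and 2 lower (0.32), with the complement genes C1qa at 1.01 (SE 0.85), C1qc at 0.87 (SE 0.88) and C1qb at 0.67 (SE 0.59), and the megakaryocyte list 5 of 7 higher and 2 lower (0.23), with Gp5 at 0.46 (SE 0.37), Itga2b at 0.42 (SE 0.35) and Treml1 at 0.23 (SE 0.42). The erythroid list was lower in 8 of 8 (-1.14), although its score was highest on transitional 4 and 5, with Slc4a1 at -1.56 (SE 0.77), Alas2 at -1.75 (SE 0.94) and Hemgn at -1.15 (SE 0.97). The T cell list had 4 higher and 9 lower (-0.23), with Cd2 at -0.70 (SE 0.83), Cd4 at 0.55 (SE 0.97) and Thy1 at -0.27 (SE 0.53). The granulocyte list had 2 higher and 9 lower (-0.49), with Mmp9 at -0.75 (SE 0.98), Mpo at -0.86 (SE 1.68) and Camp at -0.52 (SE 1.23), and the eosinophil gene Prg2 was at -0.55 (SE 0.99). The plasma cell list had 4 higher and 6 lower (-0.05), with Irf4 at -0.84 (SE 0.48), Derl3 at -0.57 (SE 0.44) and Ell2 at 0.36 (SE 0.29). The interferon list had 5 higher and 5 lower (-0.02), with Ifih1 at 0.55 (SE 0.19), Rsad2 at -1.87 (SE 0.73) and Ifit2 at 0.47 (SE 0.21), against a median of -0.057 over all tested probe sets. None of these genes passed between classes in limma (adjusted p = 0.999 each). Without transitional 4 and 5 the counts of higher and lower were 7 and 0 for NK cell (median 1.11), 5 and 4 for macrophage (0.25), 4 and 3 for megakaryocyte (0.30), 0 and 8 for erythroid (-3.18), 8 and 2 for plasma cell (0.35) and 9 and 1 for interferon genes (0.36). The macrophage and megakaryocyte scores were highest on transitional 2 (2.38 and 1.46), and without that array the counts were 4 and 5 (-0.02) for macrophage, 3 and 4 (-0.05) for megakaryocyte and 3 and 4 (-0.01) for NK cell genes. For T cell genes they were 0 and 13 without transitional 2 (-0.60), and over all tested probe sets the median was then -0.078. With grade in the marginal class, the granulocyte genes that passed were Mmp9, Ngp, Camp, Ltf, Lcn2 and Mmp8, with slopes of -3.15 (Ltf) to -2.41 (Mmp9) log2 units per step. Mpo, Prtn3, Elane, S100a9 and S100a8 did not pass, with slopes of -3.08 (Mpo) to -1.25 (S100a8). Lyz2 and Cd14 of the macrophage list had slopes of -1.65 and -2.09 (limma adjusted p = 0.03 and 0.0354), Prg2 of -2.62 (adjusted p = 0.03) and the plasma cell gene Sdc1 of -1.34 (adjusted p = 0.0487).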
